A study of Mus musculus with 24 samples.

Results

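The genes described here are 40 genes of DNA replication and S phase, the stage of the cell cycle in which the genome is copied. They were taken as a list of mouse symbols and matched by Ensembl identifier to the count tables. All 40 were found among the 31062 listed features, all 40 were counted in each of the 24 libraries, and all 40 were among the 14622 genes that passed the filter on low counts. By role they comprise an origin licensing group (Orc1, Orc6, Cdc6 and Cdt1, with Mcm10, which helps to activate the loaded helicase), the helicase subunits Mcm2, Mcm3, Mcm4, Mcm5, Mcm6 and Mcm7, and the helicase activators Cdc45, Gins1, Gins2, Gins3 and Gins4. The sliding clamp Pcna and its loader (Rfc1, Rfc2, Rfc3, Rfc4 and Rfc5), the polymerase subunits Pola1, Pola2, Pold1 and Pole, and Fen1, Lig1, Rpa1 and Rpa2 act at the fork. Nucleotide supply (Rrm1, Rrm2, Tyms and Tk1), uracil removal and chromatin assembly (Ung, Chaf1a and Chaf1b) and the G1/S regulators Ccne1, Ccne2 and E2f1 complete the list.

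The transcripts were sequenced from poly-A RNA of ID8 p53-/- cells, ovarian cancer cells of the mouse, and every group shares the p53 loss. The cells were either Ifngr1-KO, edited in the gene of the IFN-gamma receptor chain that binds the ligand, or sgNTC, the non-targeting control genotype. Each genotype was grown for 48 hours on regular adherent plates or in ultra-low attachment (ULA) plates, where cells stay detached, and received recombinant mouse interferon-gamma (IFN-gamma) at 100 ng/ml or PBS as vehicle for the last 24 hours. The 8 groups were therefore sgNTC adherent with PBS, sgNTC adherent with IFN-gamma, sgNTC ULA with PBS, sgNTC ULA with IFN-gamma, and the same 4 combinations in Ifngr1-KO cells, with 3 libraries each that the labels number as biological replicates. The ULA samples alone went through dead cell removal before extraction, so the culture comparison also carries that step. Each genotype is 1 line, and the labels do not say whether it is a clone, so receptor loss cannot be told apart from any other difference between the lines.

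As background, replication starts at origins that are licensed in G1, when the origin recognition complex, Cdc6 and Cdt1 load the MCM ring onto DNA. At the start of S phase Cdc45 and the GINS complex join MCM to form the active helicase, and Pcna, loaded by replication factor C, holds the polymerases on the template. Many of these genes are transcribed by E2F factors, which the retinoblastoma protein restrains until cyclin D and cyclin E kinases act on it; cyclin D1 is known to respond to adhesion signals. The measurements are of bulk RNA, in which fewer cells in S phase and less RNA per cell cannot be told apart.

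Libraries held 33494774 to 63154942 counts. Ifngr1 was lower in all 12 Ifngr1-KO libraries than in all 12 sgNTC libraries, with group means of 13.8 to 15.9 and 35 to 45.7 CPM (counts scaled to a common library total with TMM factors), so its transcript was reduced and not absent. The Cas9 feature of the count tables had group means of 69.7 to 104 CPM in Ifngr1-KO and 1108 to 2033 CPM in sgNTC cells. Mitochondrially encoded genes took 1.96% to 2.45% of counts in adherent and 3.31% to 3.87% in ULA Ifngr1-KO libraries, and 2.49% to 2.94% and 5.09% to 6.12% in sgNTC libraries. The 40 members together took 0.335% to 0.354% and 0.272% to 0.308% of counts in Ifngr1-KO libraries, and 0.258% to 0.266% and 0.194% to 0.22% in sgNTC libraries. The epithelial and mesothelial markers of the list were present in part. Krt8, Krt18, Krt19, Msln and Wt1 were high, Epcam was at 0 in every library, and Krt7, Cdh1 and Pax8 were near 0. Muc16 and Upk3b differed by line. Mean Muc16 of the sgNTC line with PBS was 17.3 CPM on adherent and 29.2 CPM in ULA plates. For the Ifngr1-KO line these means were 0.0738 and 1.45 CPM. Mean Upk3b with PBS was 7.51 (adherent) and 2.06 CPM (ULA) for the sgNTC line. It was 0.353 and 0.24 CPM for the Ifngr1-KO line. With IFN-gamma the group means of both genes were likewise higher for the sgNTC line. The 6 immune markers summed to 0 to 0.244 CPM in adherent and 0 to 0.611 CPM in ULA libraries, with Cd3e at 0, and the 4 haemoglobin genes were at 0. The 4 endothelial markers summed to 0.45 to 1.14 and 1.11 to 5.2 CPM, with 1 of the 4 above 1 CPM in any library. The 6 fibroblast and pericyte markers summed to 33.3 to 108 CPM in adherent and 97.5 to 123 CPM in ULA libraries, with 2 of the 6 above 1 CPM in any library, with 0 of the 6 at 0 everywhere. The part of the mitochondrial share and of these markers in the culture and line results was not tested. By a chi-square per gene, the adherent Ifngr1-KO PBS replicate 3 library stood apart from the other libraries of its group (19.1 and 19 against 7.23 per gene for the 3 pairs of libraries), and so did replicate 2 of the ULA Ifngr1-KO group with IFN-gamma (20 and 25.3 against 7.48).

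E2F sites can be looked for as letters in the promoters of these genes. RefSeq promoter windows (GRCm38.p6, 250 bases before to 50 after a start) matched 33 of the 40 members, as 37 windows; the others are Rfc2, Ccne2, Mcm4, Gins1, Gins2, Gins4 and Pole. Both strands were searched for TTTCCCGC, TTTCGCGC, TTTGCCGC and TTTGGCGC, written variants of the E2F site; matches on opposite strands can overlap. At least 1 match lay in 12 of the 37 member windows (32.4%), against 744 of all 32851 windows (2.3%). The 12 stretches of 30 bases that hold the most matched letters are printed 5′ to 3′ along the gene, with matches in capitals, so that the written sites can be compared. They lie, in the order printed, at chr11:98908002-98908031 and chr8:122568035-122568064 on the plus strand, chr4:108579416-108579445 on plus, chr1:20820266-20820295 on minus, chr8:75109347-75109376 on plus, chr1:128359795-128359824 and chr5:138171849-138171878 on minus, chr8:95633507-95633536 on plus, chr5:151651195-151651224, chrX:93632275-93632304 and chr7:44548766-44548795 on minus, and chr7:13278841-13278870 on plus.

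Cdc6: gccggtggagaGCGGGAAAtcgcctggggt
Cdt1: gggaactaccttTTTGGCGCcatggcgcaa
Orc1: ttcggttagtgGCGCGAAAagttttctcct
Mcm3: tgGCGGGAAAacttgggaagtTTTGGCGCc
Mcm5: gccaagaacTTTCGCGCCAAAacgtccagc
Mcm6: gcgtatgctTTTGGCGCGAAAagtgcgtgc
Mcm7: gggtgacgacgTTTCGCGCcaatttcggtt
Gins3: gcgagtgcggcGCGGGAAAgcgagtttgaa
Rfc3: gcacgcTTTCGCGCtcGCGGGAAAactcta
Pola1: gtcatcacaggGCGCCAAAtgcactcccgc
Pold1: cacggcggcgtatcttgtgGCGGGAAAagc
Lig1: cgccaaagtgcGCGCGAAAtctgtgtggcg

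In Mcm5 and Mcm6 matches from opposite strands overlap in 1 block, and in Mcm3 and Rfc3 separate matches lie within the same 30 bases. A match describes letters and shows no bound factor, and a window without one, such as those of Cdc45, Mcm2, Rfc4, Pcna, Rrm1, Rrm2 and Tk1, holds only other letters. The E2f1 window (chr2:154569377-154569676, minus strand) had no match either. It lies wholly inside the gene as counted (chr2:154559407-154569892), so the bases before that outer start were not searched. The matched windows of Cdc6, Lig1 and Mcm7 also lie inside their genes as counted. The other motifs searched were CCAAT on both strands, in 54.1% of member windows and 37.4% of all windows, and TTTGAA, the core of the cell cycle homology region of mitotic promoters, in 10.8% and 17.9%. The 250 bases before the start are shown for Gins3, one of the deepest falls in detached sgNTC cells, and for Mcm6, the helicase subunit that was called lower in no culture comparison although its window has 3 matches. They lie at chr8:95633309-95633558 on the plus strand and chr1:128359706-128359955 on the minus strand.

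Gins3: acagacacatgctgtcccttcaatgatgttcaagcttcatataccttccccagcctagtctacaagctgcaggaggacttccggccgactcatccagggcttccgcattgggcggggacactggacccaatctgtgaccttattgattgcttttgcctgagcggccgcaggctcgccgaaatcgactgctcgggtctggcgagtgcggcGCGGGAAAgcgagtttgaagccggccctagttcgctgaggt
Mcm6: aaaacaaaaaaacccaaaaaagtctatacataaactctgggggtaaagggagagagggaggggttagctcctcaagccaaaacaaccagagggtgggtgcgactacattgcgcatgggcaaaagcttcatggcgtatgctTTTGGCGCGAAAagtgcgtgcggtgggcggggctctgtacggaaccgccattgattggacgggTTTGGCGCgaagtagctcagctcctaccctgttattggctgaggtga

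Levels differed widely among the members. In adherent sgNTC cells with PBS, Pcna had the highest level per kilobase of exon, a mean of 125 CPM per kb (libraries 122 to 129, n = 3). Mcm3, Mcm6, Mcm7 and Mcm4 followed at 38.1, 36.6, 35.6 and 32.3 CPM per kb. Cyclin E1 (Ccne1) at 1.63 and Gins3 at 3.18 CPM per kb were the lowest. Of the 39 pairs of neighbours in this order, 25 overlapped in their libraries, so their order is not resolved. Within a group the members varied little: the coefficient of variation over 3 libraries had a median of 5.28% over members and groups and reached 22.2% for Gins3 in adherent Ifngr1-KO cells with PBS. Members whose exons overlap another gene are less certain, since the counting ignored strand and dropped reads that hit several genes. This touches 67.3% of the exon bases of Gins2 (shared with Gse1), 18.7% of Chaf1a, 17.4% of Ccne2, 15.1% of Rfc2, 12.7% of Rfc4 and 10.7% of Rfc5.

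Detachment was accompanied by lower levels of most replication genes in both lines. Here a gene rose or fell, or was called, where edgeR's quasi-likelihood test gave an adjusted p under 0.05 (Benjamini-Hochberg, over all 14622 genes). In sgNTC cells with PBS, 32 of the 40 members fell and 1 rose from adherent to ULA culture, while 32.1% of all tested genes fell and 32.5% rose, and the members' median log2 fold change was -0.56 against 0.03 for all genes. With IFN-gamma in both cultures, 30 fell and 4 rose (all genes 32.0% and 32.6%), with a median of -0.49 against 0.05. In Ifngr1-KO cells 31 fell and 4 rose with PBS (31.1% and 29.6%, median -0.45 against 0.00), and 27 fell and 6 rose with IFN-gamma (30.9% and 29.3%, median -0.34 against -0.01). These 4 comparisons share no library. Across them 25 members fell every time and 6 fell in none (Ccne1, Mcm6, Rfc1, Rrm1, Rrm2 and Tk1). Of the 25, Fen1 and Mcm5 lost their call in Ifngr1-KO cells with IFN-gamma in at least 1 fit that left out a single library. Fen1 also lost it without both libraries that stood apart. Pold1 lost its call in sgNTC cells with IFN-gamma under the alternatives given below.

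**Figure D1:**
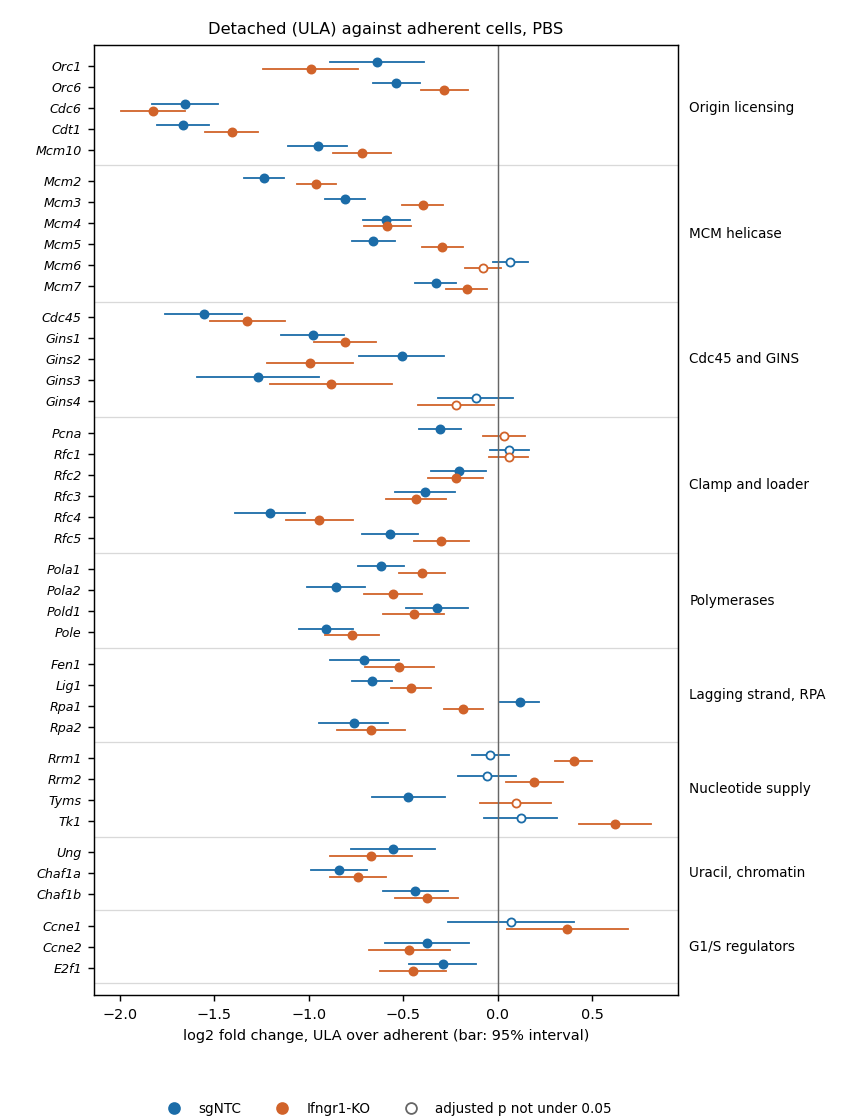
Log2 fold change of each of the 40 members from adherent to ULA culture with PBS, in sgNTC (blue) and Ifngr1-KO (orange) cells, with 95% intervals, by role. Filled points passed an adjusted p under 0.05. Most points lie left of 0 in both lines, with Cdc6, Cdt1 and Cdc45 farthest left and Tk1 farthest right in Ifngr1-KO cells.

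All 5 genes of the origin licensing group, Mcm10 included, fell with PBS in both lines, and Cdc6 and Cdt1 were among the deepest falls of the list. Cdc6 (ENSMUSG00000017499, chr11:98907801-98923940, plus strand), the ATPase that recruits MCM to origins, stood at 46, 47.1 and 55.8 CPM in the adherent sgNTC PBS libraries and at 15.1, 15 and 17.3 CPM in ULA. In Ifngr1-KO cells it stood at 86.8, 86.8 and 95.2 against 24.5, 23.8 and 27.5 CPM. Every ULA library lay below every adherent library of its line, and the ULA Ifngr1-KO libraries lay below the adherent sgNTC ones too. The fall was 3.15-fold in sgNTC cells (log2 -1.66 ± 0.09, SE, adjusted p = 1.8e-18) and 3.55-fold in Ifngr1-KO cells (log2 -1.83 ± 0.08, 9.41e-20). Cdt1 (ENSMUSG00000006585, chr8:122568015-122573554, plus strand), its partner in loading MCM, had 76.2, 78.5 and 78.7 CPM in adherent and 25.5, 22.8 and 25.1 CPM in ULA sgNTC libraries. In Ifngr1-KO libraries it had 77.8, 83.5 and 81.7 and 31.2, 27.5 and 32.8 CPM. Adherent and ULA libraries did not overlap in either line, with falls of 3.18-fold (log2 -1.67 ± 0.07, adjusted p = 3.17e-21) and 2.66-fold (-1.41 ± 0.07, 4.61e-19). Mcm10, which helps to activate the loaded helicase, fell by 0.95 ± 0.08 on the log2 scale in sgNTC and by 0.72 ± 0.08 in Ifngr1-KO cells. Among the origin recognition subunits, Orc1 changed by -0.64 ± 0.12 and -0.99 ± 0.12 and Orc6 by -0.54 ± 0.06 and -0.28 ± 0.06, all called. All 5 genes of the licensing group fell in each of the 4 culture comparisons. With IFN-gamma the log2 changes of Cdc6 were -1.65 in sgNTC and -1.64 in Ifngr1-KO cells, and those of Cdt1 -1.52 and -1.33, in other libraries.

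**Figure D2:**
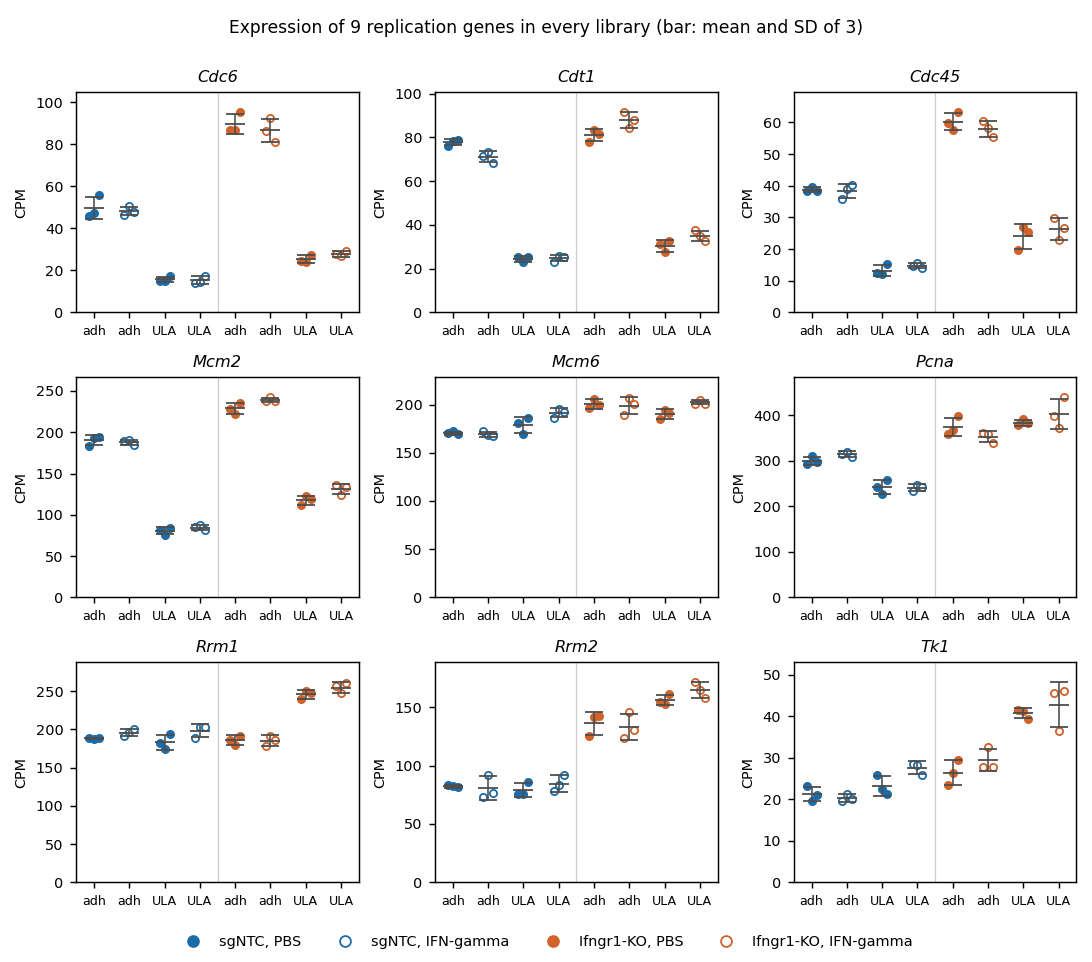
CPM of 9 members in all 24 libraries, on linear axes from 0, with the mean and SD of the 3 libraries of each group; adh is adherent culture, blue is sgNTC, orange is Ifngr1-KO, and open points received IFN-gamma. Cdc6, Cdt1, Cdc45 and Mcm2 are lower in every ULA group than in the adherent group of the same line, Mcm6 is nearly level, and Rrm1, Rrm2 and Tk1 are highest in ULA Ifngr1-KO libraries.

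Of the 6 helicase subunits, which form a single ring, 5 fell in each line with PBS, and Mcm6 was not called. Mcm2 had 183, 193 and 195 CPM in adherent and 81.7, 76 and 84.5 CPM in ULA sgNTC libraries, a 2.36-fold fall (log2 -1.24 ± 0.05, adjusted p = 4.86e-21). Mcm6 had 170.1, 172 and 169 and 181, 169 and 186 CPM in the same libraries, which overlapped (log2 0.07 ± 0.05, interval -0.03 to 0.16, adjusted p = 0.203). Between these, Mcm3, Mcm5, Mcm4 and Mcm7 fell, with log2 changes of -0.81, -0.66, -0.59 and -0.33. In Ifngr1-KO cells Mcm2 changed by -0.96 ± 0.05 (adjusted p = 6.75e-18), Mcm7 by -0.16 ± 0.05 (0.00875) and Mcm6 by -0.08 ± 0.05 (0.155); the Mcm7 call was lost without the adherent PBS replicate 3 or the ULA PBS replicate 1 library (log2 -0.11 and -0.12). The CPM ratio of Mcm2 to Mcm6 within a library, a description, was 1.12 ± 0.037 in adherent and 0.452 ± 0.003 in ULA sgNTC cells with PBS (SD, n = 3), and 1.14 ± 0.055 and 0.618 ± 0.014 in Ifngr1-KO cells. In sgNTC cells with PBS Mcm6 was called higher with library totals in place of TMM factors (log2 0.17) and by DESeq2 (log2 0.10). It was also called higher in sgNTC cells given IFN-gamma (log2 0.18, adjusted p = 0.00116).

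Of the 5 activators of the helicase 4 fell in each line with PBS. Cdc45, which joins MCM and GINS in the moving helicase, had 38.4, 39.6 and 38.3 CPM in adherent and 12.4, 12 and 15.3 CPM in ULA sgNTC libraries. Its values were 59.7, 57.8 and 63.2 and 19.6, 27 and 25.5 CPM in Ifngr1-KO libraries, with no overlap in either line. The falls were 2.94-fold (log2 -1.56 ± 0.10, adjusted p = 1.77e-15) and 2.51-fold (-1.33 ± 0.10, 6.63e-14). Cdc6, Cdt1 and Cdc45 were the 3 members that fell by more than 2-fold in all 4 culture comparisons. The GINS subunits, which act as a complex of 4, differed. In sgNTC cells Gins3 fell 2.41-fold from a low level (8.62 ± 1.05 to 3.59 ± 0.459 CPM, SD, n = 3), Gins1 by 0.98 ± 0.08 and Gins2 by 0.51 ± 0.11 on the log2 scale. Gins4 stood at 24.4 ± 0.531 and 22.5 ± 0.854 CPM and was not called with PBS in sgNTC (log2 -0.12 ± 0.10, adjusted p = 0.304) or Ifngr1-KO cells (-0.22 ± 0.10, 0.0563). Its fall in Ifngr1-KO cells with IFN-gamma (log2 -0.28) was lost in the fit to the compared groups (log2 -0.25) and without any of 3 libraries, among them the ULA replicate 2 library (log2 -0.14).

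Of the clamp and its loader, Rfc4 fell furthest and Rfc1 was called lower in no comparison. Rfc4, a small loader subunit, had 22.3, 25.5 and 23.7 CPM in adherent and 9.6, 10.8 and 10.6 CPM in ULA sgNTC libraries (log2 -1.21 ± 0.09, adjusted p = 6.58e-14). Rfc5 and Rfc3 fell in both lines with PBS, by log2 changes of -0.57 and -0.38 in sgNTC and -0.30 and -0.43 in Ifngr1-KO cells. Rfc2 changed by -0.21 ± 0.07 and -0.22 ± 0.07; the sgNTC call was lost with library totals (log2 -0.11) and the Ifngr1-KO call without the libraries that stood apart (log2 -0.14). Rfc1, the large subunit, changed by 0.06 ± 0.05 (interval -0.04 to 0.17) and 0.06 ± 0.05 (interval -0.04 to 0.16), neither called; with library totals it was called higher in sgNTC cells (log2 0.16). In Ifngr1-KO cells with IFN-gamma it rose by 0.13 ± 0.05, a call that was lost without both libraries that stood apart. Pcna, the clamp itself, had 293, 309 and 297 CPM in adherent and 243, 227 and 258 CPM in ULA sgNTC libraries, a fall of 0.31 ± 0.06 on the log2 scale (adjusted p = 9.02e-06). In Ifngr1-KO cells it had 359, 367 and 397 and 378, 391 and 383 CPM, which overlapped (log2 0.04 ± 0.05, 0.592). With IFN-gamma it fell in sgNTC cells (-0.38 ± 0.06) and rose in Ifngr1-KO cells (0.19 ± 0.05, adjusted p = 0.00253).

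All 4 polymerase subunits fell in every culture comparison. Pole, the catalytic subunit of the leading-strand polymerase, changed by -0.91 ± 0.07 in sgNTC and -0.77 ± 0.07 in Ifngr1-KO cells with PBS. The primase-polymerase subunits Pola1 and Pola2 changed by -0.62 and -0.86 in sgNTC and -0.40 and -0.55 in Ifngr1-KO cells, and Pold1, the catalytic subunit of polymerase delta, by -0.32 and -0.45. The Pold1 call in sgNTC cells with IFN-gamma (-0.25 ± 0.08) was lost with library totals (log2 -0.13), without the adherent replicate 3 library (-0.21) and without the ULA replicate 2 library (-0.16). On the lagging strand the flap nuclease Fen1 and the ligase Lig1 fell as well, with log2 changes of -0.71 and -0.66 in sgNTC and -0.52 and -0.46 in Ifngr1-KO cells. The subunits of replication protein A, which coats single-stranded DNA, split. Rpa2 fell by 0.76 ± 0.09 in sgNTC and 0.67 ± 0.09 in Ifngr1-KO cells. Rpa1 had 91.6, 94.6 and 95.2 CPM in adherent and 109, 96.3 and 99.5 CPM in ULA sgNTC libraries, and 139, 139.8 and 135 and 118, 125 and 123 CPM in Ifngr1-KO libraries. Its ULA values were thus higher in sgNTC (log2 0.12 ± 0.05, adjusted p = 0.0476) and lower in Ifngr1-KO cells (-0.18 ± 0.05, 0.00255). The sgNTC rise with PBS was lost in the fit to the compared groups (adjusted p = 0.062), without the filter (0.141), with the replicate block (0.0515) and without any of 5 of the 6 libraries. With IFN-gamma Rpa1 rose in sgNTC cells (0.21 ± 0.05, adjusted p = 0.00072) and was not called in Ifngr1-KO cells (-0.06 ± 0.05).

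Of the 4 nucleotide supply genes, 3 rose and 0 fell in Ifngr1-KO cells with PBS, and 0 rose and 1 fell in sgNTC cells. Tk1, the salvage enzyme thymidine kinase 1, had 23.5, 26.3 and 29.6 CPM in adherent and 41.6, 41.3 and 39.3 CPM in ULA Ifngr1-KO libraries, a 1.54-fold rise with no overlap (log2 0.62 ± 0.09, adjusted p = 5.62e-07). In sgNTC libraries it had 23.2, 19.7 and 20.9 and 25.8, 22.4 and 21.3 CPM, which overlapped (log2 0.12 ± 0.10, 0.267). With IFN-gamma it rose in sgNTC cells too, from 19.5, 21.3 and 20.1 CPM in adherent to 28.6, 28.3 and 25.9 CPM in ULA libraries with no overlap (log2 0.44 ± 0.10, adjusted p = 0.000142). Rrm1, the large subunit of ribonucleotide reductase, had 187, 179 and 192 and 239.6, 250.2 and 248 CPM in Ifngr1-KO libraries, a rise of 0.40 ± 0.05 on the log2 scale (adjusted p = 6.59e-09). In sgNTC cells Rrm1 stood at 188 ± 0.876 and 183 ± 9.74 CPM (log2 -0.04 ± 0.05, interval -0.14 to 0.06). Rrm2, the small subunit made in S phase, rose less in Ifngr1-KO cells (0.19 ± 0.07, adjusted p = 0.0223) and was not called in sgNTC cells (-0.06 ± 0.07). Tyms, thymidylate synthase, fell in sgNTC cells with PBS (-0.47 ± 0.09, 4.2e-05) and was not called in the other 3 culture comparisons. In Ifngr1-KO cells Rrm1, Rrm2, Tk1 and Ccne1 were called higher in ULA culture with PBS and again with IFN-gamma; the Rrm2 call with PBS was lost without either of 2 libraries (log2 0.16 and 0.19), and each Ccne1 call without either of 2 (log2 0.25 and 0.31 with PBS, 0.36 and 0.40 with IFN-gamma).

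Chromatin and uracil genes fell in both lines with PBS. Chaf1a and Chaf1b, subunits of the factor that places histones on new DNA, changed by -0.84 ± 0.07 and -0.44 ± 0.08 in sgNTC and -0.74 ± 0.07 and -0.38 ± 0.08 in Ifngr1-KO cells with PBS. Ung, which removes uracil from DNA, changed by -0.56 ± 0.11 and -0.67 ± 0.11. The transcription factor E2f1 and cyclin E2 (Ccne2) fell in both lines, E2f1 by 0.29 ± 0.09 and 0.45 ± 0.09 and Ccne2 by 0.38 ± 0.11 and 0.47 ± 0.11. With library totals the E2f1 call in sgNTC cells with PBS was lost (log2 -0.19), and so was that of Ccne2 in sgNTC cells with IFN-gamma (log2 -0.24). Ccne1, the least abundant member, stood at 4.35 ± 0.261 and 4.54 ± 0.344 CPM in sgNTC cells and at 6.41 ± 0.645 and 8.29 ± 1.34 CPM in Ifngr1-KO cells with PBS (SD, n = 3). It was called higher in ULA culture in the other 3 comparisons (log2 0.54 in sgNTC cells with IFN-gamma, 0.37 and 0.45 in Ifngr1-KO cells).

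Other genes of the pathway were also mostly lower in ULA culture. They come from lists grouped by role that were chosen with earlier results of these data known. Of 130 tested genes in 8 lists, 98 fell and 12 rose in sgNTC cells with PBS, and 73 fell and 26 rose in Ifngr1-KO cells. These lists include the mitosis and G2 genes and the CDK inhibitors and D cyclins, which are also described separately below. Of all tested genes 32.1% fell and 32.5% rose in sgNTC cells and 31.1% fell and 29.6% rose in Ifngr1-KO cells, against which each count of these lists is to be read. Among 16 further origin and helicase genes 12 fell in sgNTC and 11 in Ifngr1-KO cells. The helicase Recql4 went from 41.4 to 7.65 CPM in sgNTC cells (log2 -2.43 ± 0.10) and from 50.5 to 15.9 CPM in Ifngr1-KO cells (-1.67 ± 0.09). Mtbp, a partner of the firing factor treslin, fell by 1.95 ± 0.06 and 1.51 ± 0.06, and Dbf4, the activating subunit of the Cdc7 kinase, by 1.55 ± 0.06 and 0.85 ± 0.06. Of 14 further nucleotide genes 11 fell in each line, led by Cad, the first enzyme of pyrimidine synthesis (-1.72 and -1.57), Ctps (-1.51 and -1.47) and Impdh2 (-1.46 and -1.23).  Polymerase and fork genes (16 of 22 down in each line) included Pold2 at -1.60 and -1.52. Chromatin copying genes (11 and 9 of 12 down) included Usp1 at -1.27 and -1.06 and Hells at -1.20 and -0.99. Checkpoint genes (10 and 9 of 13 down) included Hus1 at -0.90 and -0.81 and Chek1 at -0.69 and -0.91.

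Other regulators of the cell cycle moved on both sides. Ccnd1, the adhesion-dependent cyclin D1, went from 156 to 45.6 CPM in sgNTC cells (log2 -1.78 ± 0.06) and from 202 to 119.9 CPM in Ifngr1-KO cells (-0.75 ± 0.06). Ccnd3 rose in both lines, by 0.89 ± 0.08 and 0.98 ± 0.08. The CDK inhibitor Cdkn1a (p21) rose from 53.1 to 99.4 CPM in sgNTC and from 49.4 to 186 CPM in Ifngr1-KO cells, and Cdkn1b (p27) by 0.24 ± 0.06 and 0.20 ± 0.06. The repressor E2f7 fell by 1.63 ± 0.12 and 0.78 ± 0.12, and E2f8 changed by -0.97 ± 0.13 in sgNTC cells (adjusted p = 4.85e-08) and -0.18 ± 0.13 in Ifngr1-KO cells (0.214). In the list of CDK inhibitors and D cyclins, 7 of 10 were tested, of which 5 rose and 1 fell in sgNTC and 6 rose and 1 fell in Ifngr1-KO cells.

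Replication genes were higher in Ifngr1-KO than in sgNTC cells in either culture. With PBS, 34 of the 40 members were higher and 0 lower in adherent cells (all tested genes 20.1% and 23.9%), with a median log2 difference of 0.35 against -0.02 for all genes. In ULA cells with PBS 33 were higher and 0 lower (24.5% and 25.6%), with a median of 0.55 against -0.02. With IFN-gamma the counts were 34 and 0 in adherent (20.2% and 23.1%) and 35 and 0 in ULA cells (27.6% and 27.2%), with medians of 0.41 and 0.58. At an unadjusted p under 0.05, 34 to 36 members and 7307 to 8672 of all 14622 genes differed in each of the 4, and DESeq2 also called 0 members lower. With library totals 1 member, Orc6, was called lower in ULA cells with IFN-gamma (log2 -0.17). The 4 comparisons share no library. In all 4, 31 members were higher, and Gins3, Gins4 and Orc6 were higher in none. Of the 31, Chaf1a, Fen1, Tk1 and Tyms lost their adherent PBS call in at least 1 fit that left out a single library. Tk1 and Tyms also lost it without both libraries that stood apart. The same lines differ in Cas9, Muc16 and Upk3b transcripts and in mitochondrial share, as given above, and the part of these in the result was not tested.

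**Figure D3:**
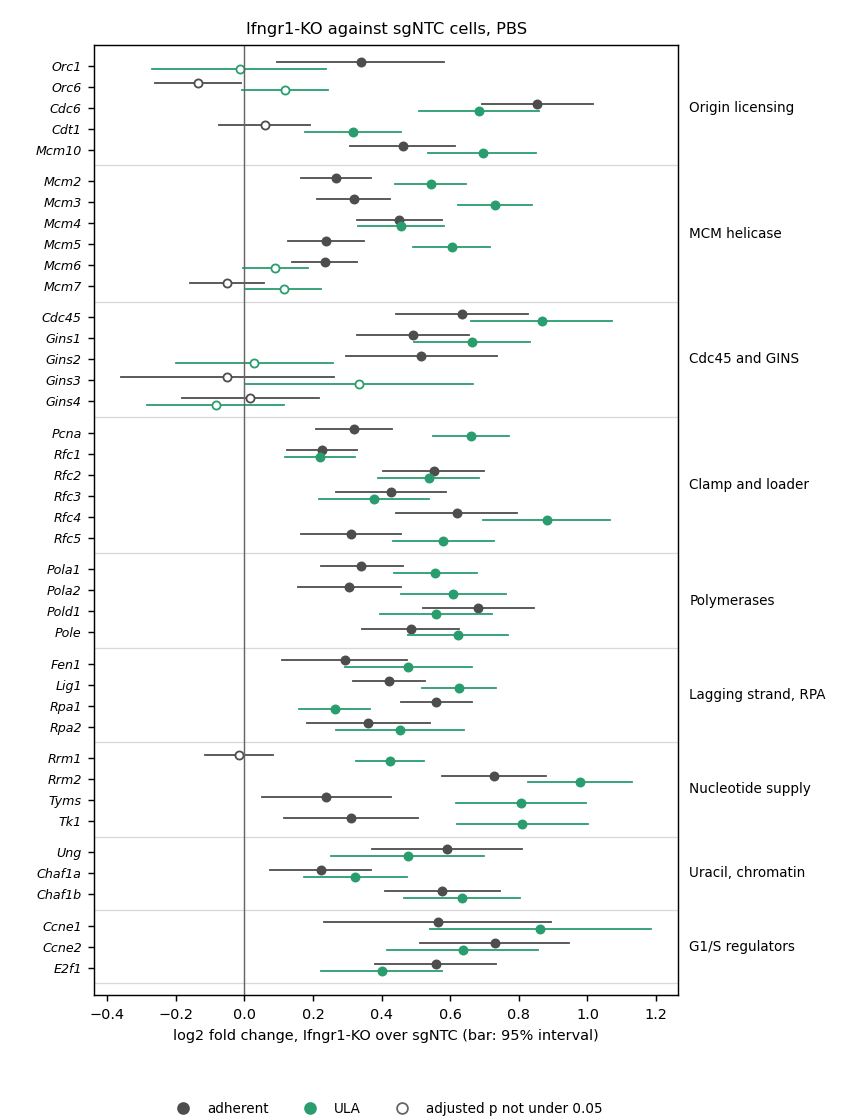
Log2 difference of each of the 40 members between Ifngr1-KO and sgNTC cells with PBS, in adherent (grey) and ULA (green) culture, with 95% intervals, by role. Filled points passed an adjusted p under 0.05. No member is called below 0, and Gins4, Orc6 and Mcm7 lie near 0 in both cultures.

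The widest differences came from genes of several roles. Rrm2 had 83.5, 82.2 and 81.3 CPM in adherent sgNTC and 125, 142 and 142 CPM in adherent Ifngr1-KO libraries (log2 0.73 ± 0.07, adjusted p = 1.34e-09), and in ULA libraries 75.7, 76.1 and 86.1 against 154, 153 and 161 CPM (0.98 ± 0.07, 1.28e-12). The lines did not overlap in either culture. Cdc6, from the values given with the licensing genes, was higher by 0.85 ± 0.08 in adherent and 0.68 ± 0.09 in ULA cells. Pold1 had 42.3, 38.3 and 40.2 CPM in adherent sgNTC and 63, 67.1 and 63.9 CPM in adherent Ifngr1-KO libraries (log2 0.68 ± 0.08), and with IFN-gamma its difference was 0.98 ± 0.08 in adherent cells. Cdc45 was higher by 0.63 ± 0.10 and 0.87 ± 0.10, Rfc4 by 0.62 ± 0.09 and 0.88 ± 0.09, and Ccne2 by 0.73 ± 0.11 and 0.64 ± 0.11, in adherent and ULA cells with PBS. E2f1 itself was higher by 0.56 ± 0.09 in adherent cells (36.5 ± 3.16 against 53.5 ± 2.51 CPM, SD, n = 3) and by 0.40 ± 0.09 in ULA cells. Members near 0 were Gins4 (0.02 ± 0.10 and -0.08 ± 0.10), Orc6 (-0.14 ± 0.06 and 0.12 ± 0.06) and Mcm7 (-0.05 ± 0.05 and 0.11 ± 0.05). Gins4 values were 24.9, 23.9 and 24.4 CPM in adherent sgNTC and 26, 22.7 and 25.4 CPM in adherent Ifngr1-KO libraries, which overlapped.

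In adherent cells with PBS, 59 of the 130 pathway genes, mitosis genes included, were higher and 25 lower in Ifngr1-KO (all genes 20.1% and 23.9%), and in ULA cells 91 were higher and 10 lower (24.5% and 25.6%). Checkpoint genes were higher in both cultures (11 of 13 each), among them Brca1 (0.73 and 0.50), which acts in the repair of broken forks. In the list of E2F, RB and G1/S genes, 1 was higher and 6 were lower in adherent cells, led by Cdk4 at -0.55 ± 0.06, E2f4 at -0.45 ± 0.05 and Tfdp1 at -0.44 ± 0.06.

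Culture effects were also compared between the lines. The difference between the culture effects, Ifngr1-KO minus sgNTC, was called above 0 for 12 members and below 0 for 2 with PBS, where 16.6% and 11.2% of all genes were called. With IFN-gamma 7 were above and 1 below, which is no more than the shares of all genes (19.0% and 13.3%). The adherent level of both lines enters this difference, so it does not say which group carries it. Without both libraries that stood apart the IFN-gamma counts were 14 and 1, and the same 14 and 1 without replicate 2 of the ULA Ifngr1-KO group with IFN-gamma alone, which added Cdc45, Chaf1a, Chaf1b, Fen1, Gins1, Mcm7 and Pola2. With library totals in place of TMM factors the counts were 6 and 3 with PBS and 4 and 3 with IFN-gamma, and the split of all genes turned from 2426 above and 1642 below to 1706 and 2356 with PBS and from 2776 and 1945 to 1759 and 2858 with IFN-gamma. Called in both treatments were Mcm2, Mcm3, Mcm5, Lig1, Pcna, Rrm1 and Rpa1. With library totals Mcm2 (log2 0.18 and 0.17) and Lig1 (0.11 and 0.11) were not called in either treatment. The Rpa1 call with IFN-gamma was lost without the filter (log2 -0.22) and without the adherent Ifngr1-KO replicate 2 library (log2 -0.19), and the Lig1 call with PBS was also lost without the filter and without any of 5 libraries. Rrm1 showed 0.44 ± 0.07 with PBS (adjusted p = 6.02e-06) and 0.44 ± 0.07 with IFN-gamma (4.71e-06). Mcm3 had 143, 144 and 143 and 77.5, 81.1 and 86.6 CPM in adherent and ULA sgNTC libraries and 178, 183 and 174 and 132, 138 and 137 CPM in Ifngr1-KO libraries. It fell in both lines, with a difference of 0.41 ± 0.07 (adjusted p = 5.5e-05). Pcna showed 0.34 ± 0.08 with PBS and 0.58 ± 0.08 with IFN-gamma. Rpa1, below 0, showed -0.30 ± 0.07 and -0.26 ± 0.07. Of the deepest falls, Cdc6 showed -0.17 ± 0.12 (interval -0.41 to 0.07) and Cdc45 0.23 ± 0.14 (interval -0.05 to 0.51) with PBS, neither called, and Cdt1 0.26 ± 0.10 (adjusted p = 0.0396), called but lost with library totals, without the filter and without any of 5 libraries.

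Genes of mitosis and G2, a list of 28, mostly fell with detachment in sgNTC cells, as the replication genes did, and mostly did not in Ifngr1-KO cells. In sgNTC cells with PBS 25 of the 28 fell and 1 rose with detachment (all genes 32.1% and 32.5%, median log2 change of the list -0.62). In Ifngr1-KO cells 6 fell and 11 rose (all genes 31.1% and 29.6%, median of the list 0.09). Those that rose included Cenpf (0.98 ± 0.07), Kif20a (1.14 ± 0.09) and Mki67 (0.62 ± 0.07). The difference between the culture effects was called above 0 for 26 of 28 with PBS (median 0.74) and 25 of 28 with IFN-gamma (median 0.71), where 16.6% and 19.0% of all genes were above. The medians over the 40 replication members were 0.18 and 0.13. With library totals, which turn the split of all genes as given above, 25 mitosis genes were above 0 in each treatment. Mki67, the proliferation marker Ki-67, had 327, 271 and 313 and 211, 212 and 232 CPM in adherent and ULA sgNTC libraries and 276, 267 and 258 and 419, 408 and 403 CPM in Ifngr1-KO libraries. As a mean log2 CPM over the genes of a list, the replication members ran from 5.56 to 5.57 in adherent and 4.92 to 5.03 in ULA sgNTC libraries with PBS, and from 5.92 to 5.96 and 5.44 to 5.50 in Ifngr1-KO libraries. The mitosis genes ran from 6.04 to 6.07 and 5.38 to 5.55 in sgNTC libraries, and from 5.92 to 6.00 and 6.05 to 6.08 in Ifngr1-KO libraries. With PBS this mean over the replication members was lower in all 3 detached Ifngr1-KO libraries than in all 3 adherent sgNTC libraries, although single members such as Rrm2 (156 against 82.3 CPM), Pcna (384 against 299.9) and Mcm6 (190.2 against 171) were higher there on average. The mean over the mitosis genes overlapped between the same groups. Whether the lists differ was not tested.

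**Figure D4:**
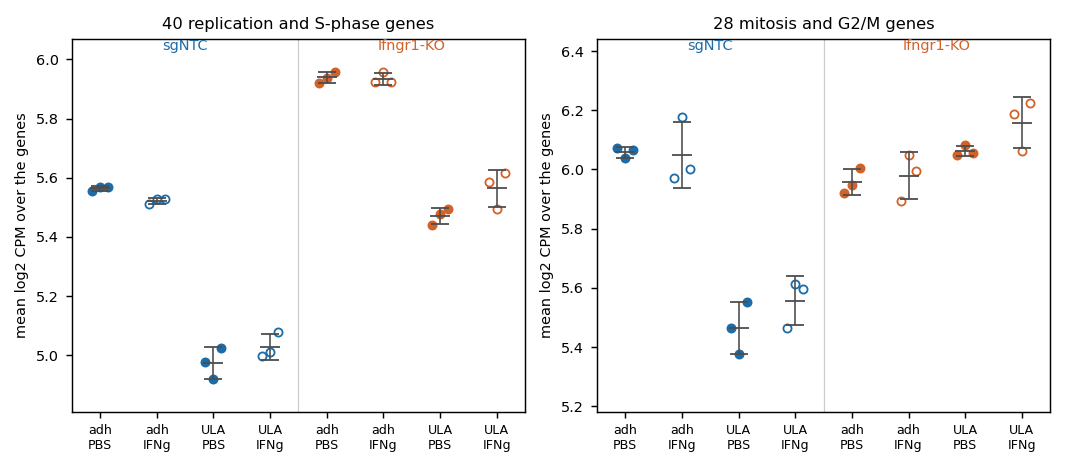
Mean log2 CPM over the 40 replication and S-phase genes (left) and over 28 mitosis and G2/M genes (right) in each of the 24 libraries, with the mean and SD of the 3 libraries of a group; both axes have the same length in log2 units but start at different levels, adh is adherent and open points received IFN-gamma. The replication genes are lower in ULA than in adherent libraries of each line. The mitosis genes are lower in ULA libraries of sgNTC cells, and between 6.05 and 6.23 in ULA against 5.90 and 6.05 in adherent Ifngr1-KO libraries.

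At most 1 member was called with IFN-gamma in any line and culture. In adherent sgNTC cells edgeR called 0 members higher and 0 lower (all genes 0.294% and 0.0205%), with 3 members at an unadjusted p under 0.05 and 0 called by DESeq2. In ULA sgNTC cells 1 was higher and 0 lower (1.31% and 0.739%), with 9 at an unadjusted p under 0.05 and 1 called by DESeq2. In Ifngr1-KO cells, whose receptor gene is edited, 0 were called in adherent (0.00684% and 0.0%) and 0 in ULA culture (0.0% and 0.0%), with 1 and 11 members at an unadjusted p under 0.05 and 0 called by DESeq2 in either. Of all 14622 genes, 1071 in adherent and 1924 in ULA sgNTC cells were at an unadjusted p under 0.05. In Ifngr1-KO cells 1215 were in adherent and 1103 in ULA culture. Without both libraries that stood apart 0 members were called in adherent sgNTC cells and in Ifngr1-KO cells of either culture, and 2 in ULA sgNTC cells. At an unadjusted p under 0.05 were then 6 members in adherent and 10 in ULA sgNTC cells, and 2 in adherent and 15 in ULA Ifngr1-KO cells. Over all genes the calls then went from 43 higher and 3 lower to 82 and 12 in adherent and from 192 and 108 to 299 and 252 in ULA sgNTC cells, and from 1 and 0 to 27 and 2 in adherent and from 0 and 0 to 2 and 4 in ULA Ifngr1-KO cells. All 40 intervals of the change lay within 1.5-fold either way in ULA sgNTC and adherent Ifngr1-KO cells, and 39 of 40 did in adherent sgNTC and ULA Ifngr1-KO cells. The called member was Orc6, the smallest subunit of the origin recognition complex, with 34.7, 35.2 and 35.9 CPM with PBS and 40.9, 41.4 and 41.7 CPM with IFN-gamma in ULA sgNTC libraries. These did not overlap (log2 0.23 ± 0.06, adjusted p = 0.0427), but the call was lost in the fit to the compared groups, without the filter, with the replicate block and without any 1 of the 6 libraries. Without the filter Ung was called lower in its place (log2 -0.32). In ULA Ifngr1-KO cells the log2 change of Orc6 was 0.01 ± 0.06.

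**Figure D5:**
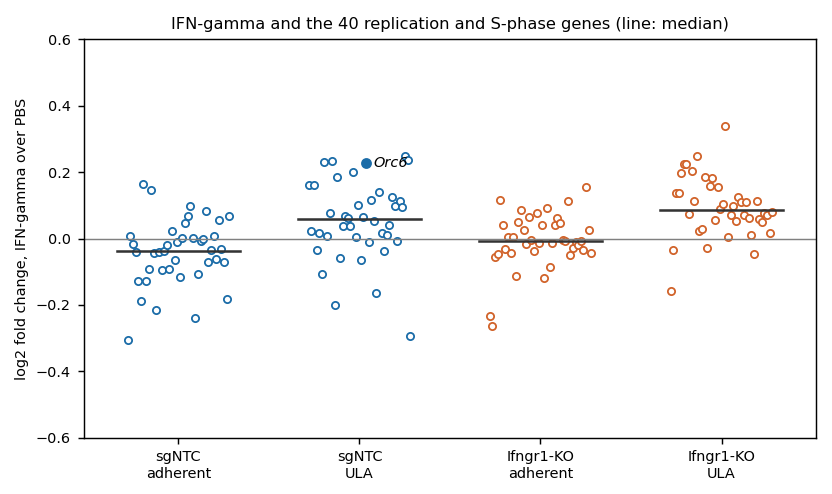
Log2 fold change with IFN-gamma of the 40 members in each line and culture, 1 point per member and a line at the median; the filled point passed an adjusted p under 0.05. The points lie between -0.31 and 0.34, and Orc6 in ULA sgNTC cells is the only filled one.

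The largest estimates without a call were Orc1 in ULA Ifngr1-KO cells (0.34 ± 0.12, interval 0.09 to 0.59) and Ccne1 in adherent sgNTC cells (-0.31 ± 0.17, interval -0.65 to 0.04). In ULA Ifngr1-KO cells 36 of the 40 estimates were above 0 with a median of 0.09, in a comparison where no gene of 14622 was called by edgeR. Its IFN-gamma group holds a library that stood apart, replicate 2. Without that library the median was 0.127, with 15 members at an unadjusted p under 0.05 and 0 called. The response to IFN-gamma was not called different between cultures in sgNTC cells for any member (0 above and 0 below; all genes 0.0479% and 0.0%), between lines in ULA culture (0 and 0; 0.54% and 0.793%, or 79 and 116 genes, against 55 and 151 with library totals) or between lines in adherent culture (0 and 0; 0.0342% and 0.0957%), with 6, 6 and 4 members at an unadjusted p under 0.05 and 0 called by DESeq2. Over all genes 781, 2092 and 1630 were at an unadjusted p under 0.05, in the same order. Without both libraries that stood apart, Gins2 and Chaf1a were called in the difference between lines in ULA culture (log2 0.53 and 0.41), and so were 222 and 198 of all genes. Of the pathway lists 3 genes were called with IFN-gamma in ULA sgNTC cells: Samhd1, which breaks down deoxynucleotides and is a known interferon-responsive gene (0.64 ± 0.06, adjusted p = 2.97e-08), Rbl1 (0.31 ± 0.06) and Cenpe (0.30 ± 0.07). Samhd1 had 87.3, 89.1 and 88.3 CPM with PBS and 145, 122 and 146 CPM with IFN-gamma, and its response was larger in ULA than in adherent sgNTC cells by 0.52 ± 0.09 (adjusted p = 0.00753). In ULA culture it was smaller in Ifngr1-KO than in sgNTC cells by a log2 difference of -0.62 ± 0.09 (adjusted p = 9.41e-05).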

How the data were processed

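Poly-A RNA from 24 libraries was sequenced in pairs and deposited by the authors as 1 table of raw read counts per library. Trimmomatic, HISAT2, SAMtools and featureCounts (Subread 2.1.1), with mm10 or GRCm38, are named per the submitters' processing notes. Counts were made with featureCounts 2.1.1 per gene over exons, each mate counted singly and strand ignored, per the file headers. From these counts, genes were filtered (filterByExpr, minimum count 10, which kept 14622 genes and at least 99.97% of counts), scaled by TMM (factors 0.958 to 1.05) and tested with edgeR 4.0.16 (quasi-likelihood, robust) in R 4.3.3. All 24 libraries entered 1 model with 8 group means, and 17 comparisons were made, each adjusted by Benjamini-Hochberg over all 14622 genes. The residual degrees of freedom were 16 and the common biological coefficient of variation was 0.0771.

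The 40 members and all gene lists were chosen with earlier results of these data known. All members may be named; of each pathway list at most 4 called genes per comparison, those with the smallest adjusted p, besides E2f7, E2f8, Cdkn1a, Cdkn1b and Ccnd1. The labels number the replicates as biological but do not say whether they came from separate cultures, so p-values measure the spread between these libraries. Alternatives were DESeq2 1.42.0, library totals, no filter, counts divided by 2, the compared groups alone, the replicate block, each library left out and, chosen after seeing the data, 2 libraries left out together. Promoter sequences came from RefSeq (GRCm38.p6).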

Additional observations from a re-analysis of the deposited data

Results flagged for a closer look

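These values are differences between the culture effects of the 2 lines (Ifngr1-KO minus sgNTC, log2, edgeR's quasi-likelihood test) that passed a Benjamini-Hochberg adjusted p under 0.05. With PBS, members above 0 were Tyms (0.569), Tk1 (0.5), Rrm1 (0.441), Mcm3 (0.411), Mcm5 (0.366), Pcna (0.341), Pola2 (0.303), Mcm2 (0.277), Rfc5 (0.269), Cdt1 (0.258), Orc6 (0.254) and Lig1 (0.204). Gins2 (-0.487) and Rpa1 (-0.296) were below 0. Most exon bases of Gins2 overlap Gse1, and its call and that of Pola2 were lost without both libraries that stood apart. With library totals Cdt1, Lig1, Mcm2, Orc6, Pola2 and Rfc5 were not called with PBS.

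With IFN-gamma, in other libraries, Pcna (0.577), Mcm3 (0.467), Rrm1 (0.442), Mcm5 (0.374), Pola1 (0.309), Mcm2 (0.286) and Lig1 (0.231) were above 0, and Rpa1 (-0.263) was below. With library totals Lig1, Mcm2 and Pola1 were not called.

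Among regulators with PBS, the difference was 1.022 for Ccnd1, 1.01 for the CDK inhibitor Cdkn1a, 0.477 for Ccnd2 and 0.566 for the inhibitor Cdkn2d. It was 0.909 for cyclin A2 (Ccna2), 0.47 for Cdk6, 0.858 for E2f7 and 0.787 for E2f8. Among mitosis genes it was 1.093 for Mki67, 0.901 for Top2a, 0.972 for Cenpf and 0.906 for Cenpe.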

How the results depend on the processing

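No value reversed its direction with a call under any alternative. All calls of the line comparisons in ULA culture with PBS (33), in adherent culture with IFN-gamma (34) and in ULA culture with IFN-gamma (35) were kept under every alternative; 29 of 34 were kept in adherent culture with PBS, 30 of 33 and 31 of 34 in the sgNTC culture comparisons with PBS and IFN-gamma, 31 of 35 and 28 of 33 in those of Ifngr1-KO cells, and 7 of 14 and 4 of 8 for the differences between culture effects. For these differences library totals gave 9 members with PBS. With IFN-gamma, leaving out 1 library gave 8 to 15 members and leaving out both libraries that stood apart gave 15. With IFN-gamma in ULA sgNTC cells, the 1 call became 2 without both libraries, 0 in the fit to the compared groups, 0 with the replicate block and 0 to 1 without 1 library. For the difference in IFN-gamma response between lines in ULA culture the 0 calls became 2 without both libraries, 1 without the filter and 0 to 1 without 1 library. Causes were not tested.

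Same-numbered libraries did not deviate together (median correlation 0.00428, 0 of 84 pairs over 0.1, 10 of 24 libraries closest to their own number). With the replicate block 32 members were called in sgNTC and 35 in Ifngr1-KO cells for culture with PBS. Library totals moved the median log2 change of all genes from 0.047 to 0.164 for culture in sgNTC cells with IFN-gamma. For the difference between the culture effects of the lines with IFN-gamma, they moved it from 0.003 to -0.116. Member changes shift with this median.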

Other observations

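Within complexes and antagonist pairs, the CPM ratios in a library are given by culture and line; they are descriptions with no test, and their levels also depend on transcript length. The ratio of Cdt1 to Gmnn, the geminin that binds and inhibits Cdt1, was 2.86 ± 0.067 in adherent and 0.806 ± 0.047 in ULA sgNTC cells with PBS (SD, n = 3), and 1.98 ± 0.176 and 0.624 ± 0.034 in Ifngr1-KO cells. The ratio of Cdc6 to Orc6 was 0.976 ± 0.151 and 0.447 ± 0.03 in sgNTC cells, and 1.93 ± 0.047 and 0.663 ± 0.076 in Ifngr1-KO cells. The ratio of Pcna to Rfc4, clamp to loader subunit, was 12.6 ± 0.491 and 23.6 ± 2.19 in sgNTC cells, and 10.3 ± 0.573 and 20.2 ± 0.975 in Ifngr1-KO cells. Rrm2 to Rrm1, the 2 chains of ribonucleotide reductase, was 0.437 ± 0.006 and 0.432 ± 0.016 in sgNTC cells, and 0.734 ± 0.06 and 0.634 ± 0.02 in Ifngr1-KO cells, so this ratio differed more between lines than between cultures of sgNTC cells.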
